A study of Homo sapiens with 16 samples.

Results

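Gene expression was compared between MiaPaCa2 cells exposed to 40 nmol/L gemcitabine for 24 hours and MiaPaCa2 cells that received no drug for the same time. Libraries were selected by the line and the drug doses in the sample labels, which gave 2 gemcitabine and 2 control libraries, 4 of 16 libraries in all. The other libraries hold the same line with 50 μmol/L genistein or with both drugs, and the line PANC1 under the same 4 conditions. MiaPaCa2 is an established human cell line from a pancreatic ductal adenocarcinoma, so each group is 1 line in culture, and the labels do not say whether the control received a vehicle. In all groups the cells grew in DMEM with fetal bovine serum, and the replicates I and II are biological replicates of the study.

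Gemcitabine is an analogue of deoxycytidine. It enters cells through nucleoside transporters, mainly ENT1 (SLC29A1), and deoxycytidine kinase (DCK) phosphorylates it first, while cytidine deaminase (CDA) inactivates it. Its triphosphate is built into DNA and stops the replication fork, and its diphosphate inhibits ribonucleotide reductase, the enzyme of RRM1 and RRM2 that makes deoxynucleotides. Stalled forks activate the ATR and CHK1 kinases, which hold cells in S phase and keep them from mitosis. The cell cycle inhibitor p21 (CDKN1A) is a further arm of the response to damaged DNA.

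Gemcitabine was followed by changes in both directions across the transcriptome. Of 16064 genes tested with limma-voom, 4747 (29.6%) were called. A call needed an adjusted p no higher than 0.05, a log2 fold change of 0.4 or more in either direction, and an average FPKM over 1 with gemcitabine. There were 2402 genes called higher (15% of those tested) and 2345 called lower (14.6%). The large changes were mostly rises, with 840 genes higher and 288 lower by at least 1 on the log2 scale, and 126 higher and 9 lower by at least 2. Protein-coding genes were called in 4030 of 12082 cases (33.4%) and long noncoding RNA genes in 282 of 1232 (22.9%), of which 210 were higher and 72 lower. The median log2 fold change over all genes tested was -0.01. The CPM of the 2 groups did not overlap for 11873 genes tested (73.9%), among them all 4747 called. In RNA from whole cultures, fewer cells with a transcript and less of it per cell cannot be told apart.

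**Figure D1:**
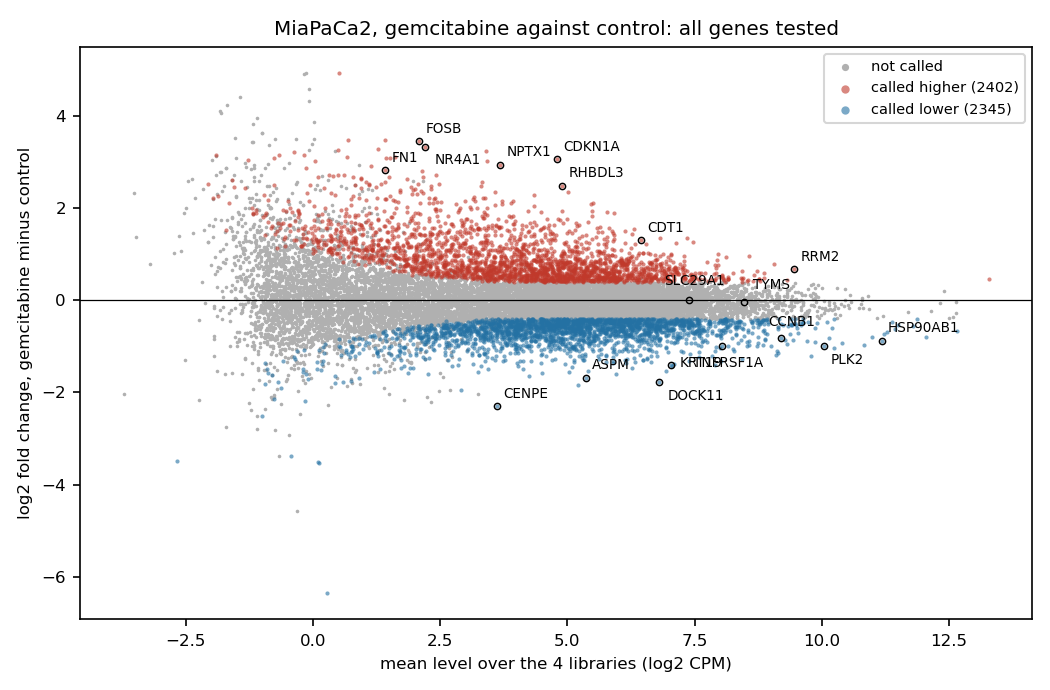
Each point is 1 of the 16064 genes tested. The horizontal axis is the mean level over the 4 libraries (log2 of CPM, counts scaled to equal library size), the vertical axis the log2 fold change of gemcitabine minus control, and colour marks the 2402 genes called higher (red) and the 2345 called lower (blue). Rises reach further than falls at moderate levels, with CDKN1A at 3.07 and CENPE at -2.29. Grey points at large fold changes did not pass the adjusted p or the FPKM criterion.

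Reads counted on genes numbered from 13445125 to 16850992 over the 4 libraries, and the replicates of each group differed by more than sampling noise (chi-square per degree of freedom 3.46 for control and 5.25 for gemcitabine). Scaling decided part of the balance between directions. With library size alone in place of TMM normalization, the median of all genes moved to 0.09 and 66.5% of 4633 called genes were higher, against 50.6% as reported. A test on log2(FPKM + 1) called 3129 genes, 72.5% of them higher. Leaving out control I lowered the count of called genes to 2857, and 2391 genes were called with all libraries and also with each of the 4 left out, 1227 higher and 1164 lower.

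The GC content of the transcripts moved with the treatment. Relative to the mean of the 8 MiaPaCa2 libraries, the slope of log2 level on GC content, per 10 points, was -0.24 and -0.15 in the controls but 0.15 and 0.06 with gemcitabine. Genes of the lowest decile by GC content had a median log2 fold change of -0.39 and those of the highest decile one of 0.40. In the lowest decile 2.73% of genes were called higher and 35.9% lower, and in the highest decile 36.4% and 3.05%. Since the trend separates the groups, a preference of the libraries for GC content and a response of these genes cannot be told apart. After the trend of each library was removed, 4536 genes were called, of which 3118 (65.7% of the reported genes) were called before as well, all in the same direction. GC-corrected counts are given beside those of the gene groups.

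**Figure D2:**
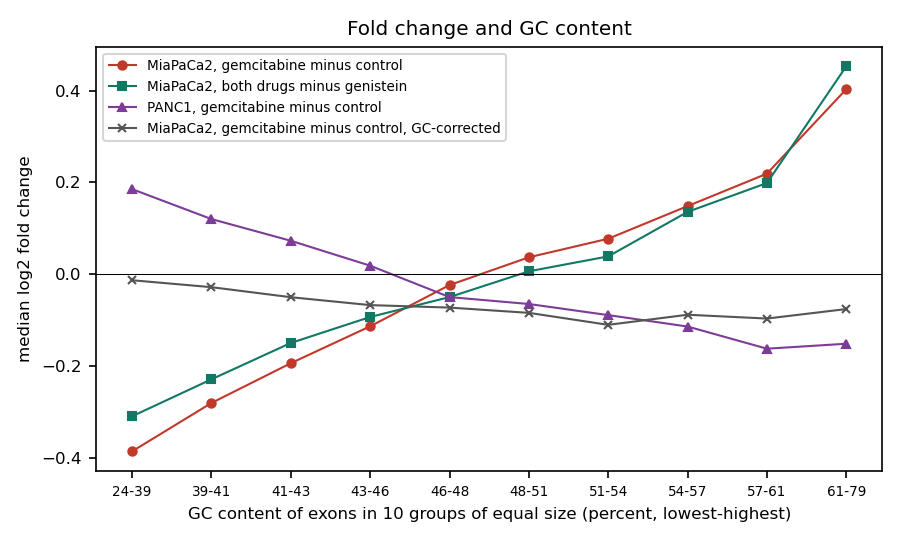
Median log2 fold change (vertical axis) of genes in 10 groups of equal size by the GC content of their exons (horizontal axis, percent), for gemcitabine minus control in MiaPaCa2 before and after GC correction, for both drugs minus genistein in MiaPaCa2 and for gemcitabine minus control in PANC1. The median in MiaPaCa2 climbs from -0.39 to 0.40 without genistein and from -0.31 to 0.45 with it, while in PANC1 it goes from 0.19 to -0.15.

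Markers were checked against the label of a pancreatic carcinoma line. The epithelial keratins KRT8, KRT18 and KRT19, the duct factor SOX9 and MUC1 were present in each library, whereas EPCAM had 0 counts in all 4 libraries, CDH1 at most 2 and KRT7 at most 9. All 6 acinar and all 5 endocrine markers had 0 counts in each library, and so did PTPRC, CD3E and PECAM1 of the immune and endothelial list and DCN, LUM and FAP of the fibroblast list. CD14 and CDH5 of the immune and endothelial list were counted in each library. The FPKM of CD14 was 4.06 and 4.98 in the controls and 4.44 and 3.33 with gemcitabine. That of CDH5 was 1.23 and 1.72 in the controls and 1.10 and 0.97 with gemcitabine. CDH5 was called lower (-0.61, limma-voom adjusted p = 0.0493), but not with library size alone (-0.50, limma-voom adjusted p = 0.106). The collagen gene COL1A2 was counted 4198 to 5277 times per library. The summed FPKM of the fibroblast list was 63.4 to 76.7 in the controls and 55.0 to 61.8 with gemcitabine, and that of the immune and endothelial list was 19.5 to 26.4 and 31.1 to 32.5. The latter sum follows CD68, with an FPKM of 14.2 and 19.7 in the controls and 26.98 and 26.83 with gemcitabine but 0 to 2 counts per library, and the part of these markers in the results was not tested. CDKN2A and MTAP, neighbours that MiaPaCa2 is known to have lost, had 0 counts in all 4 libraries.

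The largest rise among called genes with a mean of at least 100 counts over the 4 libraries belonged to VASN, a membrane protein that binds TGF-beta (GRCh37 chromosome 16, 4421849 to 4433539). Its level was 1.83 and 2.14 CPM in the controls and 22.1 and 16.1 CPM with gemcitabine, a log2 fold change of 3.24 ± 0.32 (SE, 2 against 2 libraries, limma-voom adjusted p = 1.85e-05). CDKN1A (ENSG00000124762, GRCh37 chromosome 6, 36644237 to 36655114), which encodes p21, an inhibitor of cyclin-dependent kinases, was next. It went from 6.15 and 5.65 CPM to 48.2 and 51.7 CPM, a log2 fold change of 3.07 ± 0.15 (adjusted p = 8.95e-07). The controls lay far below the gemcitabine libraries for both genes, and the replicates of CDKN1A differed little.

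The other rises by this ranking were PPP1R16B, a regulatory subunit of a protein phosphatase (log2 fold change 3.03), NPTX1, neuronal pentraxin (2.95), TNFSF9, the ligand of the costimulatory receptor 4-1BB (2.56), RHBDL3, a rhomboid-like protein (2.49), FAM46C, a poly-A polymerase (2.48), VWA5B2 (2.36), NGFR, the low-affinity receptor of neurotrophins (2.35), and KIAA1161 (2.28). Their adjusted p-values ran from 8.95e-07 for RHBDL3 to 1.64e-05 for VWA5B2. RHBDL3 was at 8.89 and 9.09 CPM in the controls and at 51.2 and 50.1 CPM with gemcitabine. Of the exon length of NGFR, 27.2% overlaps genes on the opposite strand, and whether the counting used the strand is not given in the sources used here.

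The deepest fall among called genes with a mean of at least 100 counts was that of CENPE (GRCh37 chromosome 4, 104026506 to 104119602), the kinesin that carries chromosomes to the spindle equator. It fell from 22.0 and 18.5 CPM to 4.37 and 3.88 CPM, a log2 fold change of -2.29 ± 0.24 (adjusted p = 2.79e-05). DOCK11, an activator of the GTPase CDC42, was at 179 and 167 CPM in the controls and at 50.4 and 50.9 CPM with gemcitabine (-1.77 ± 0.16). STAG1, a subunit of cohesin, went from 60.4 and 54.6 CPM to 15.5 and 16.8 CPM (-1.83 ± 0.20).

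ASPM (-1.68), a spindle pole protein, KIF20B (-1.64), a kinesin of cytokinesis, and ESCO1 (-1.56), an acetyltransferase of cohesin, were also among the 10 largest falls. The others were RABGGTB (-1.61), a subunit of the enzyme that prenylates Rab proteins, KIAA0020 (-1.58), EFNA5 (-1.55), an ephrin ligand, and KRT19P1 (-1.94), a processed pseudogene of KRT19. Since KRT19 itself fell (-1.40 ± 0.13, from 176 and 205 CPM to 72.3 and 71.5 CPM), reads of the gene and its copy may not be separate, and the value of KRT19P1 is uncertain. All 20 of these genes were also called after GC correction, with values such as 2.80 for CDKN1A and -1.81 for CENPE.

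**Figure D3:**
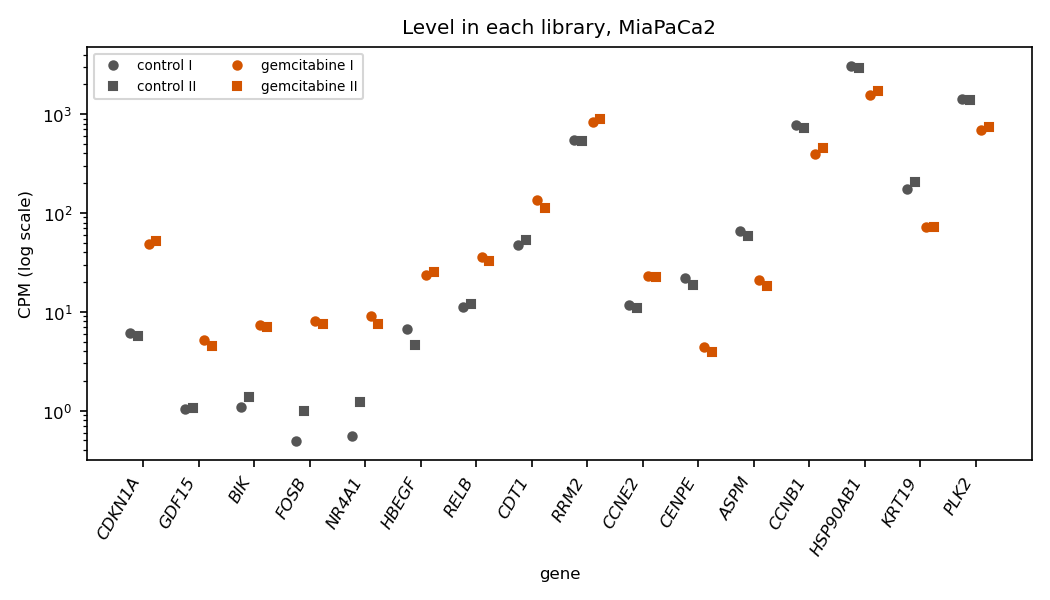
Level of 16 named genes in each of the 4 libraries (vertical axis, CPM on a log scale; circles are replicate I, squares replicate II, grey is control and orange gemcitabine). For every gene shown the groups do not overlap, as for all called genes and 73.9% of the genes tested, and CDKN1A moves from near 6 CPM to near 50 CPM.

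Cyclins E1 and E2 rose, and so did activating and repressing members of the E2F family. In the list of 28 G1/S cyclins, CDK inhibitors and E2F factors, 11 were called higher and 5 lower, 57.1% against 29.6% of all genes, the median being 0.08, and 11 higher and 5 lower remained the counts after GC correction. Cyclin E1 (CCNE1), the partner of CDK2 at the start of S phase, was at 50.7 and 51.7 CPM in the controls and at 84.2 and 95.8 CPM with gemcitabine (0.81 ± 0.10, adjusted p = 7.15e-05). Cyclin E2 (CCNE2) stood at 11.8 and 10.8 CPM and at 22.9 and 22.4 CPM (0.998 ± 0.23, adjusted p = 5.20e-03). Genes on the opposite strand overlap 37.1% of the exon length of CCNE2, so its value is uncertain. CCNE2 was not called with all 16 libraries in 1 model (limma-voom adjusted p = 0.0540) or on log2(FPKM + 1) (limma-trend adjusted p = 0.0903). The groups did not overlap for either cyclin, as for every called gene.

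Among the E2F factors, which activate or repress the S phase genes, E2F1 (1.003) and E2F2 (0.97) rose, and so did the repressor E2F7 (1.05), while E2F3 (-0.44), E2F4 (-0.53) and E2F5 (-0.80) fell. The CDK inhibitor p57 (CDKN1C) rose by 2.46 from at most 0.92 CPM in the controls to 3.67 and 4.30 CPM. The D cyclins divided, with CCND3 higher (0.79) and CCND1 lower (-0.60).

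Genes of the replication machinery rose more often than they fell. Of 52 listed genes, all tested, 20 were called higher and 6 lower, 50% against 29.6% of all genes, with a median of 0.26, and GC correction gave 18 and 1. CDT1, which loads the MCM helicase at origins, was at 47.3 and 53.4 CPM in the controls and at 135 and 112.98 CPM with gemcitabine (1.30 ± 0.17, adjusted p = 1.22e-04). LIG1, the ligase that joins Okazaki fragments, was at 61.1 and 64.1 CPM and at 120 and 101.8 CPM (0.82 ± 0.12, adjusted p = 2.97e-04). In both genes every gemcitabine library lay above every control, as in every gene called higher.

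Further rises were those of RNASEH2A (0.75), a subunit of the enzyme that removes ribonucleotides from DNA, FEN1 (0.67), the flap nuclease, CDC6 (0.55), the partner of CDT1, and CLSPN (0.55), the adaptor between ATR and CHK1. Same-strand neighbours cover 53.3% of the exon length of RNASEH2A, so its value is uncertain. POLD1, the catalytic subunit of DNA polymerase delta, rose by 0.69 but had a GC-corrected value of 0.17 that was not called, and it was not called without control I or without gemcitabine I. The falls were those of the origin recognition subunits ORC2 (-0.64), ORC4 (-0.43) and ORC5 (-0.45), of CDC7 (-0.47) and its activator DBF4 (-0.62), and of RFC3 (-0.55), of which GC correction kept ORC2. PCNA, the sliding clamp, had a value of 0.22 and was not called.

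Both subunits of ribonucleotide reductase rose, while the transporter SLC29A1 and the kinase DCK were not called. In the list of gemcitabine handling and nucleotide supply, 20 of 24 genes could be tested, 4 were called higher and 3 lower, 35% against 29.6% of all genes, and GC correction gave 6 and 2. The median was -0.03, a sign that turns with library size alone (0.08). RRM2, the small subunit of ribonucleotide reductase, was at 550 and 534 CPM in the controls and at 832 and 893 CPM with gemcitabine (0.67 ± 0.07, adjusted p = 2.66e-05). RRM1, the large subunit, was at 223 and 204 CPM and at 302 and 328 CPM (0.56 ± 0.10, adjusted p = 7.65e-04). Thymidine kinase TK1 (0.95) rose as well, and thymidylate synthase TYMS did not pass (-0.03 ± 0.08, adjusted p = 0.77). Genes on the opposite strand overlap 47.9% of the exon length of TYMS, so its value is uncertain.

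SLC29A1, the transporter ENT1, was at 164 and 172 CPM in the controls and at 171 and 167 CPM with gemcitabine (0.01 ± 0.08, adjusted p = 0.95), so the groups overlapped. The related transporter SLC29A2 fell by 0.69 on the log2 scale, from 12.4 and 13.7 CPM to 8.74 and 7.33 CPM. DCK was at 20.2 and 19.2 CPM and at 22.1 and 23.4 CPM (0.20 ± 0.13, adjusted p = 0.22), and its GC-corrected value of 0.48 was called. The nucleotide kinase CMPK1 (-0.46) and the nucleotidase NT5C3A (-0.59) were called lower, and neither was called after GC correction. CDA had 3 and 5 counts in the controls and 8 and 7 with gemcitabine, too few to test.

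All mitotic genes that were called fell. Of 52 genes, 31 were called lower and 0 higher, 59.6% against 29.6% of all genes and 14.6% called lower, with a median of -0.56. The falls reached across the spindle, the kinetochore and the regulators of entry and exit. Cyclin B1 (CCNB1), the partner of CDK1, was at 771 and 726 CPM in the controls and at 399 and 451 CPM with gemcitabine (-0.82 ± 0.08, adjusted p = 1.36e-05). Polo-like kinase PLK1 (-0.85), CDC20 (-0.93), the activator of the anaphase-promoting complex, the checkpoint kinase TTK (-1.21) and the kinetochore protein CENPF (-1.12) were among the others.

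ASPM was at 66.1 and 59.0 CPM in the controls and at 20.8 and 18.3 CPM with gemcitabine (-1.68 ± 0.20, adjusted p = 6.40e-05), and KIF18A, a kinesin that limits chromosome oscillation, fell by 1.49 on the log2 scale. CDK1 itself (0.11), BIRC5 (0.15) and AURKB (0.08) were not called. The members had a median GC content of 41.6% against 48.0% of all genes tested. GC correction gave 26 called lower, 24 of them called lower before, and 2 higher, with a median of -0.41. With each library left out in turn, 28 to 31 members were called lower.

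The promoters of the most changed replication, mitotic and immediate early genes are shown because these groups moved apart, and because E2F sites are known from replication promoters and CHR and CCAAT elements from mitotic ones. Sequences are those of RefSeq on build GRCh38.p14 (the gene positions above are on GRCh37), read 5′ to 3′ on the strand of the gene from 250 bases before to 50 bases after the start, with matches in capitals. The motifs searched on both strands were E2F (TTTCGCGC, TTTGGCGC, TTTCCCGC or TTTGCCGC), CHR (TTTGAA), the CRE that answers to cyclic AMP (TGACGTCA), AP-1 (TGAGTCA, whose reverse complement was searched too) and, by the letters of its name, the CCAAT box. The first pair are replication genes.
CDT1 chr16:88803539-88803838, plus strand: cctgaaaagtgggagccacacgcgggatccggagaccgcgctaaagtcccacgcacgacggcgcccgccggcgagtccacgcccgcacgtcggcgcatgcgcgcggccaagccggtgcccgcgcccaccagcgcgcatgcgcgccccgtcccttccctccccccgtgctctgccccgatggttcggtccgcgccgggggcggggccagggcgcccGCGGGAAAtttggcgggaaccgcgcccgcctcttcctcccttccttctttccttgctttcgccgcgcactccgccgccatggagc
LIG1 chr19:48170295-48170594, minus strand: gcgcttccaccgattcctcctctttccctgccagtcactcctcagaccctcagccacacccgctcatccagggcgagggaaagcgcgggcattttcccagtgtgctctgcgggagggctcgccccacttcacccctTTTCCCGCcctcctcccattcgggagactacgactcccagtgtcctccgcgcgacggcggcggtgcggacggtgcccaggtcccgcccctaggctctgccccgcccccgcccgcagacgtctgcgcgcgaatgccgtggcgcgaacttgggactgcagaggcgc
The mitotic pair follows.
CENPE chr4:103198294-103198593, minus strand: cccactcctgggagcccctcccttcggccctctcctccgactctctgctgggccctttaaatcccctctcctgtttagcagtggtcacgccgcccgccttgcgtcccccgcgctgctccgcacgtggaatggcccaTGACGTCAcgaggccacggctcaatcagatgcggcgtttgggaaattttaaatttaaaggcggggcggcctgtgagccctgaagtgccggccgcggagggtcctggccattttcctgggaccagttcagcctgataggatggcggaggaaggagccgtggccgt
ASPM chr1:197146620-197146919, minus strand: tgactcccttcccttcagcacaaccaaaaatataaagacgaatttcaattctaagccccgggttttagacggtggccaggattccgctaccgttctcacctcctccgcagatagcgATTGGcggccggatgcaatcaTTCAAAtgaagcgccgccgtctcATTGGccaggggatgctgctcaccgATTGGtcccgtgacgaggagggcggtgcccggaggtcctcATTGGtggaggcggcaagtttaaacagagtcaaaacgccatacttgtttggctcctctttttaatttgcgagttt
The immediate early pair has no match, and for NR4A1 the first of 2 entries is shown.
FOSB chr19:45467746-45468045, plus strand: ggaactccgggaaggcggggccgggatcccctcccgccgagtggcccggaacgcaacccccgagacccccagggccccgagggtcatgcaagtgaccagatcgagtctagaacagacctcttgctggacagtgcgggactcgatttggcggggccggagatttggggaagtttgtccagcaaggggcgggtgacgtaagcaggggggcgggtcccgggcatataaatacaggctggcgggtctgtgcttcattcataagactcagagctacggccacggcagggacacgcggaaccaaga
NR4A1 chr12:52022582-52022881, plus strand: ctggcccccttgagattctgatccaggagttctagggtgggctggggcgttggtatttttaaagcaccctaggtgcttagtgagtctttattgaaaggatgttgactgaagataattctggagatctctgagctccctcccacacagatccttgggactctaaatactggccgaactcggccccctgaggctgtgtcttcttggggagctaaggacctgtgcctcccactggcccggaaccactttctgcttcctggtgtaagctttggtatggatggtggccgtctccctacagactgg

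CDT1 and LIG1 each held 1 E2F match. ASPM held 4 CCAAT matches and 1 CHR match, and CENPE held a CRE. Entries were found for 45 of 52 replication genes, 43 of 52 mitotic genes and 20 of 29 immediate early genes. An E2F match stood in 37.3% of the 59 replication entries, 7.55% of the 53 mitotic entries and 3.31% of all 35116 promoters. A CHR match stood in 64.2% of mitotic entries, 3.39% of replication entries and 15.2% of all, and CCAAT in 75.5%, 54.2% and 34.6%. Of the 25 entries of immediate early genes, 1 held a CRE and 1 an AP-1 match (4.0% each), against 1.85% and 4.95% of all promoters. These matches are letters in a window of 300 bases and were not tested against the fold changes.

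Repair genes showed no common direction. In the list of homologous recombination, Fanconi and checkpoint genes, 4 of 40 were called higher and 7 lower, 27.5% against 29.6% of all genes, with a median of -0.14. GC correction turned the balance to 7 higher and 5 lower, with a median of -0.05. ATM, the kinase of double-strand breaks, was at 36.2 and 33.2 CPM in the controls and at 18.3 and 16.6 CPM with gemcitabine (-0.99 ± 0.24, adjusted p = 6.03e-03). ATR fell by 0.67 on the log2 scale, and its GC-corrected value of -0.25 was not called. Neither was called without control I, ATM was not called without gemcitabine II, and ATR was not called without gemcitabine I. FANCL, a ubiquitin ligase of the Fanconi pathway (0.64), the nuclease EXO1 (0.56) and FANCD2 (0.41) rose. Replication-dependent histones, whose transcripts lack a poly-A tail, could be tested for 19 of 86 genes in these poly-A libraries. Of these 19, 2 were called lower and 0 higher, 10.5% against 29.6% of all genes, and 5 and 0 after GC correction.

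The secreted stress factor GDF15 was at 1.04 and 1.07 CPM in the controls and at 5.24 and 4.54 CPM with gemcitabine (2.18 ± 0.28, adjusted p = 9.91e-05). FDXR (0.98), which reduces mitochondrial ferredoxin, the kinase PLK3 (0.96) and the translesion polymerase POLH (0.87) rose too. MDM2, a ubiquitin ligase, was at 33.0 and 28.9 CPM and at 26.2 and 25.8 CPM (-0.25 ± 0.13, adjusted p = 0.15). BAX (-0.14) and FAS (-0.39) were not called, and the kinase PLK2 fell from 1423 and 1388 CPM to 685 and 734 CPM (-0.99 ± 0.07).

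In the list of the BCL2 family, caspases and death receptors, 9 of 35 genes were called higher and 3 lower, 34.3% against 29.6% of all genes, with a median of 0.22. GC correction gave 8 and 5, with a median of 0.03. The proapoptotic BH3 protein BIK was at 1.10 and 1.37 CPM in the controls and at 7.34 and 7.03 CPM with gemcitabine (2.53 ± 0.31, adjusted p = 7.17e-05). The BH3 genes BCL2L11 (0.80), PMAIP1 (0.59) and BMF (0.51) and the initiator caspases CASP10 (1.14) and CASP9 (0.64) rose. TNFRSF1A, the main receptor of TNF, fell from 345 and 356 CPM to 177 and 175 CPM (-0.99 ± 0.09, adjusted p = 9.31e-06), and the death ligand TNFSF10 fell by 0.84 on the log2 scale. The antiapoptotic genes BCL2L1 (-0.14), MCL1 (-0.28) and XIAP (-0.23) were not called.

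Immediate early genes, which growth factors and stress switch on without new protein synthesis, had the highest median of any list, 1.24. Of 29 genes, 13 were called higher and 2 lower, 51.7% against 29.6% of all genes, and GC correction gave 12 and 7 with a median of 0.94. FOSB, an AP-1 subunit, was at 0.49 and 0.99 CPM in the controls and at 8.04 and 7.45 CPM with gemcitabine (3.45 ± 0.36, adjusted p = 2.52e-05). The orphan nuclear receptor NR4A1 was at 0.55 and 1.22 CPM and at 8.97 and 7.57 CPM (3.32 ± 0.35, adjusted p = 2.64e-05). The control levels of both rest on few reads and differ between replicates, but lie far below the gemcitabine libraries.

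ARC (2.34), FOS (2.24), the stress factor ATF3 (1.98), JUNB (1.93) and EGR1 (1.36) rose as well. EGR4, NR4A3, EGR3, NR4A2 and EGR2 had values from 2.18 to 4.59 with adjusted p-values up to 0.0288, but a mean FPKM of 1 or less with gemcitabine, so they were not called. MYC (-0.65) and KLF6 (-1.54) fell, KLF6 from 187 and 180 CPM to 65.6 and 60.7 CPM, and JUN was not called (0.23).

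**Figure D4:**
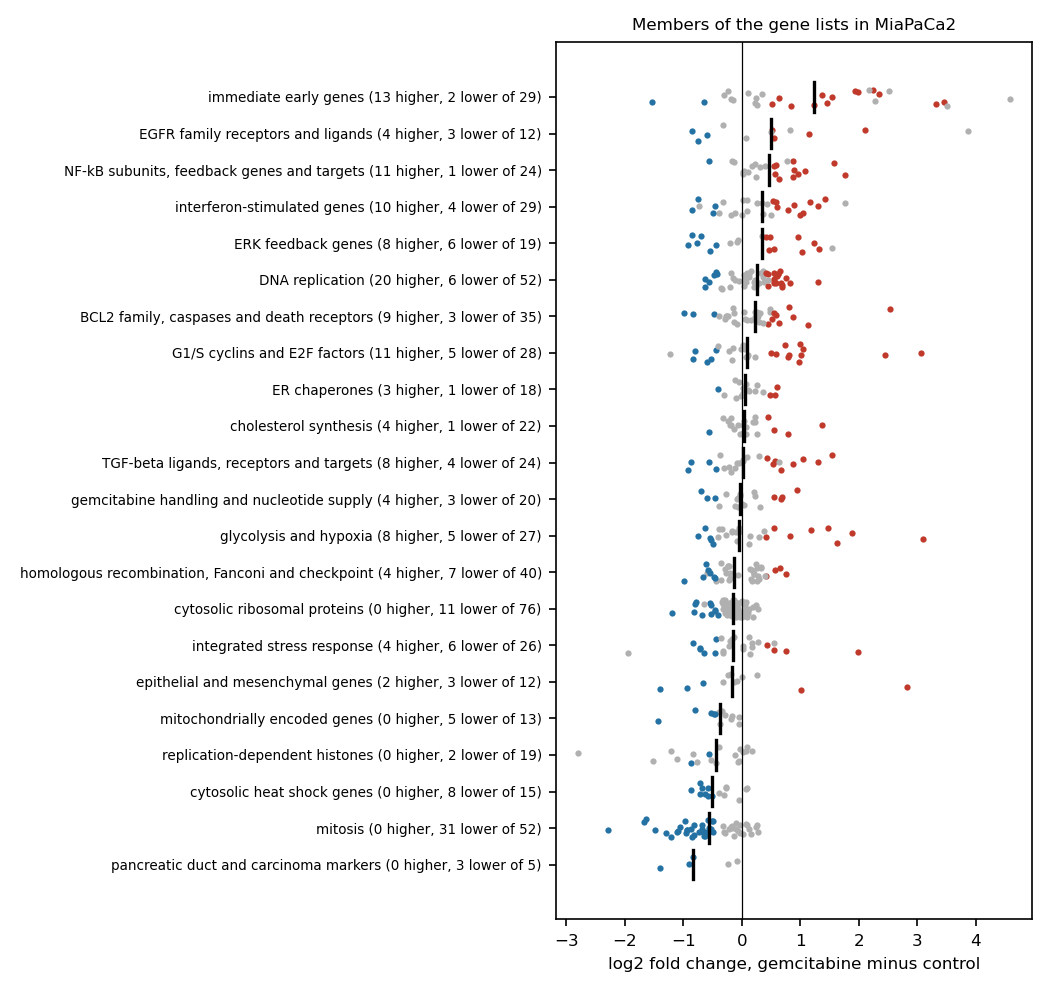
Log2 fold change (horizontal axis) of each tested member of the gene lists described, each with at least 5 tested members. Red points were called higher, blue points lower and grey points not called, and the black bar is the list's median, from -0.83 for the duct markers to 1.24 for the immediate early genes. Counts beside each name are members called and tested.

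The feedback genes that ERK induces to restrain itself divided by family. Of 19 tested, 8 were called higher and 6 lower, 73.7% against 29.6% of all genes. The MAP kinase phosphatases DUSP5 (1.31), DUSP6 (1.03), DUSP8 (0.96), DUSP2 (0.56) and DUSP1 (0.49) rose, and the Sprouty inhibitors SPRY1 (-0.77), SPRY2 (-0.92) and SPRY4 (-0.70) fell. ERRFI1, an inhibitor of EGFR, fell from 792 and 806 CPM to 428 and 453 CPM (-0.86 ± 0.08, adjusted p = 1.70e-05). GC correction left 3 called higher, DUSP5, DUSP6 and IER3, and 6 lower. Genes on the opposite strand overlap 28.6% of the exon length of DUSP6 and 38.9% of that of IER3, so these values are uncertain. DUSP8 was not called without control I, control II or gemcitabine I.

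In the list of EGFR family receptors and ligands, 12 of 16 genes could be tested, and 4 were called higher and 3 lower, 58.3% against 29.6% of all genes, with 3 and 2 after GC correction. HBEGF, a ligand of EGFR, was at 6.64 and 4.58 CPM in the controls and at 23.5 and 25.02 CPM with gemcitabine (2.11 ± 0.17, adjusted p = 6.11e-06). The ligand EREG (-0.76) and EGFR itself (-0.60) fell, and EREG was not called after GC correction. AREG was called at 1.14, from 0.85 and 0.69 CPM in the controls to 1.81 and 1.70 CPM with gemcitabine. It lost the call when any of the 4 libraries was left out. Its FPKM of 61.9 and 80.7 (means of control and gemcitabine) is far above what these counts give, so its value is uncertain.

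Genes of the NF-kB pathway that were called mostly rose, both subunits of the alternative branch among them. Of 24 tested members of 31, 11 were called higher and 1 lower, 50% against 29.6% of all genes, with a median of 0.47, and GC correction gave 9 and 1 with 0.25. RELB, the partner of p52 in the alternative pathway, was at 11.1 and 11.99 CPM in the controls and at 36.1 and 32.7 CPM with gemcitabine (1.57 ± 0.19, adjusted p = 7.51e-05). NFKB2, the precursor of p52, was at 53.05 and 51.8 CPM and at 100.8 and 103.9 CPM (0.96 ± 0.10, adjusted p = 2.65e-05). The subunits RELA (0.10), NFKB1 (0.03) and REL (0.01) were not called.

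The other NF-kB rises included the surface protein CD83 (1.76), the feedback inhibitor TNFAIP3 (1.09), the ubiquitin ligase BIRC3 (0.88) and the chemokine IL8 (0.64). The chemokine CXCL1 fell (-0.56), and the inhibitor NFKBIA (-0.17) was not called. BIRC3 was not called without gemcitabine II.

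TGF-beta genes moved both ways. Of 24 tested, 8 were called higher and 4 lower, 50% against 29.6% of all genes, with a median of 0.02, and GC correction gave 7 and 5. The ligand TGFB1 was at 14.98 and 16.3 CPM in the controls and at 41.0 and 36.3 CPM with gemcitabine (1.31 ± 0.14, adjusted p = 3.38e-05). LTBP1, which binds latent TGF-beta, rose by 1.04 and CTGF, a matrix-associated target, by 1.54, while LTBP2 (-0.92) and the feedback gene PMEPA1 (-0.88) fell. Among epithelial and mesenchymal genes, 2 of 12 were called higher and 3 lower, 41.7% against 29.6% of all genes (2 and 5 after GC correction). FN1, fibronectin, rose from 0.73 and 0.54 CPM to 4.72 and 4.73 CPM (2.83 ± 0.33), SNAI1 rose (1.02), and ZEB1 (-0.94), VIM (-0.66) and KRT19 fell. The collagen gene COL1A1 rose by 1.90 from 18 and 9 counts to 63 and 52 counts, while COL1A2 (-0.25) was not called.

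Chaperones of the cytosol were lower where they were called. Of 15 tested heat shock genes, 8 were called lower and 0 higher, 53.3% against 29.6% of all genes, with a median of -0.52, and GC correction gave 11 and 0 with -0.57. HSP90AB1, the constitutive HSP90, was at 3083 and 2901 CPM in the controls and at 1566 and 1699 CPM with gemcitabine (-0.88 ± 0.07, adjusted p = 3.80e-06). HSPA8 (-0.68), HSPA4 (-0.72) and the mitochondrial cochaperone HSPE1 (-0.72) fell as well, whereas the stress-inducible HSPA1A (-0.27) and HSPA1B (-0.26), near-identical copies whose reads may not be separate, were not called.

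In the integrated stress response, 4 of 26 genes were called higher and 6 lower, 38.5% against 29.6% of all genes, and GC correction gave 2 higher and 9 lower. Its central factor ATF4 was at 132 and 128 CPM in the controls and at 70.2 and 76.0 CPM with gemcitabine (-0.83 ± 0.09, adjusted p = 2.51e-05), and the tryptophan-charging enzyme WARS (-0.72) and PSAT1 (-0.71) fell, against ATF3 and VLDLR (0.76). ER chaperones, with 22.2% called, below the share of all genes, had 3 of 18 called higher, namely CRELD2 (0.60), MANF (0.56) and HERPUD1 (0.47), and CANX called lower (-0.41), and of these GC correction kept HERPUD1. The major ER chaperone HSPA5 was not called (-0.02).

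Within glycolysis and hypoxia genes, 8 of 27 were called higher and 5 lower, 48.1% against 29.6% of all genes, with a median of -0.05. GC correction turned the balance to 6 higher and 8 lower, with a median of -0.16. The oxygen-sensing hydroxylase EGLN3 was at 0.37 and 0.92 CPM in the controls and at 5.18 and 4.91 CPM with gemcitabine (3.09 ± 0.40, adjusted p = 1.03e-04). The vasodilator peptide gene ADM (1.89), the aldolase ALDOC (1.63), NDRG1 (1.47) and ANKRD37 (1.18) rose too. The glycolytic enzymes PKM (-0.55), ENO1 (-0.53) and LDHA (-0.49) fell, as did the oxygen-regulated factor HIF1A (-0.63), not called after GC correction, and the angiogenic ligand VEGFA (-0.75).

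Of 29 interferon-stimulated genes, 10 were called higher and 4 lower, 48.3% against 29.6% of all genes, with a median of 0.35, and GC correction gave 11 and 3 with 0.38. OAS3, which makes the activator of RNase L, was at 41.0 and 42.4 CPM in the controls and at 120 and 105.1 CPM with gemcitabine (1.43 ± 0.10, adjusted p = 2.69e-06). IFI6 (1.30), USP18 (1.16) and IFI35 (1.04) rose, and IFIT2 (-0.85) and IFIT5 (-0.75) fell. Cholesterol synthesis had 4 of 22 genes called higher, with TM7SF2 at 1.37 and MVD at 0.80, and 1 called lower, 22.7% against 29.6% of all genes. After GC correction MVD was not called.

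The 13 mitochondrially encoded genes were all below 0, 5 of them called lower, 38.5% against 29.6% of all genes, with a median of -0.37. The share of counts on all genes of the mitochondrial chromosome, not only these 13, overlapped between the groups. Before TMM scaling it was 4.39% and 4.91% in the controls and 4.23% and 5.11% with gemcitabine. GC correction gave 4 called lower, 3 of them called lower before. MT-CYB, cytochrome b, was at 2440 and 2729 CPM in the controls and at 1378 and 1593 CPM with gemcitabine (-0.80 ± 0.09, adjusted p = 3.08e-05), and MT-ND6 fell by 1.44 on the log2 scale. With 1 library left out, 2 to 8 of them were called. MT-ATP6 and MT-ATP8, which overlap, were not called without control II or without gemcitabine I. Of 76 cytosolic ribosomal protein genes, 11 were called lower and 0 higher, 14.5% against 29.6% of all genes, and 14 were called lower after GC correction. The most changed, RPL36A (-1.19), RPL17 (-0.82), RPS10 (-0.81) and RPL21 (-0.79), had 1.39 to 18.9 CPM per library but group mean FPKM of 198 to 814, and these values are uncertain, since the authors left out reads with several alignments and these genes have close copies or overlapping neighbours.

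Of 5 tested duct and carcinoma markers, 3 were called lower and 0 higher, 60% against 29.6% of all genes, and 4 and 0 after GC correction. SOX9 was at 80.9 and 86.7 CPM in the controls and at 45.3 and 43.7 CPM with gemcitabine (-0.91 ± 0.09, adjusted p = 2.27e-05). MUC1 fell by 0.83 on the log2 scale beside KRT19, while KRT8 (-0.24) and KRT18 (-0.09) were not called. The fall of MUC1 was called after GC correction (-1.14) but not on log2(FPKM + 1) (-0.13, limma-trend adjusted p = 0.79). The FPKM of MUC1 overlapped between the groups, so its value is uncertain. The summed FPKM of the 8 markers was 1079 to 1247 in the controls and 875 to 901 with gemcitabine.

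The 4 MiaPaCa2 libraries with genistein held the same dose of gemcitabine for the same time and share no library with the comparison above. Genistein, a plant isoflavone, was present in both arms there. With gemcitabine added to genistein, 5068 genes were called (31.5%), 2668 higher and 2400 lower. Of the genes called for gemcitabine alone, 3442 (72.5%) were called there too, which is 67.9% of the genes called with genistein, and 3438 of them in the same direction, 1858 higher and 1580 lower. The sign was the same for 98% of the genes called for gemcitabine alone, and for 75.4% of the 11317 genes that were not. These libraries show a similar GC trend, from -0.31 in the lowest decile to 0.45 in the highest, and after GC correction 3309 genes were called in both comparisons, 3305 of them in the same direction.

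All 10 of the largest rises and 6 of the 10 largest falls were called with genistein present as well. CDKN1A had a log2 fold change of 2.57 there, NPTX1 2.75 and FN1 3.63. CENPE (-1.08), ASPM (-1.16) and KIF20B (-1.11) passed the criteria of p (adjusted p = 0.0280, 3.12e-03 and 2.71e-03) and fold there but not that of FPKM, and ESCO1 (-0.58) did not pass p (0.27). Without gemcitabine, the genistein libraries already held these 4 genes below both controls. CENPE was at 2.66 and 5.61 CPM there, ASPM at 14.4 and 26.9, KIF20B at 6.52 and 9.28 and ESCO1 at 2.74 and 5.66. The test of a difference from gemcitabine alone did not pass for these 4 (adjusted p = 0.466, 0.699, 0.657 and 0.628). Of 52 mitotic genes 23 were called lower and 0 higher, of 15 heat shock genes 8 and 0, and of 52 replication genes 6 and 12. Of all genes tested, 31.5% were called with genistein present. Immediate early genes had 3 of 29 called lower and 11 higher, with a median of 0.37 against 1.24 without genistein. ERK feedback genes had 6 of 19 called lower and 4 higher. The mitochondrially encoded genes had a median of 0.27 there, 3 called higher and 1 lower, with MT-ND6 (-0.55) and MT-CYB (-0.21) below 0 in both comparisons, and for no single one of the 13 did the difference pass.

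**Figure D5:**
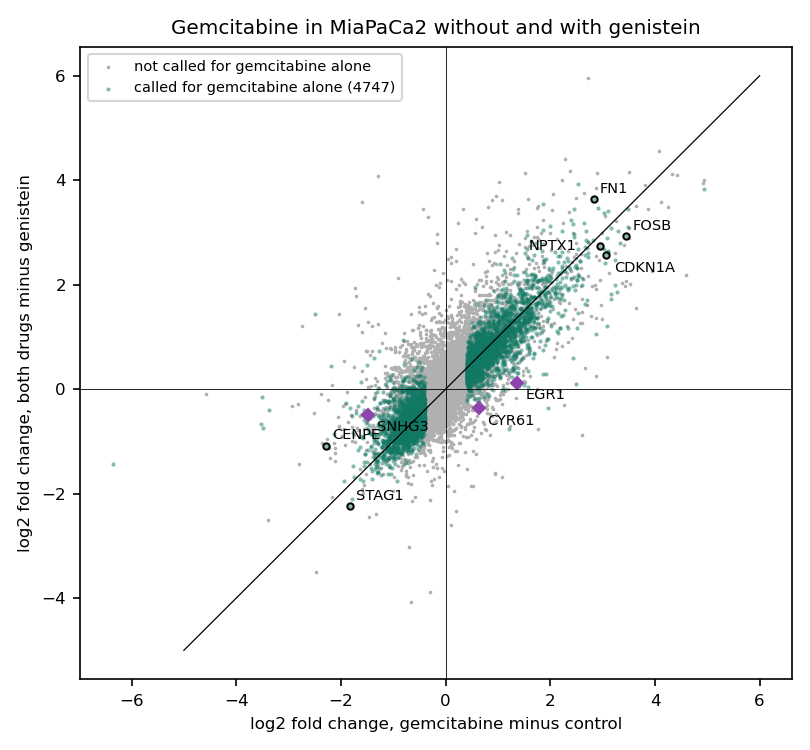
Log2 fold change of gemcitabine minus control (horizontal axis) against both drugs minus genistein (vertical axis) for the genes tested, in MiaPaCa2. Green points were called for gemcitabine alone (4747), grey points were not, the line marks equal values, and purple diamonds are 3 genes whose response differed with genistein. Most green points lie in the quadrants of equal sign (98%).

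The difference between these responses was tested itself. It passed an adjusted p of 0.05 in limma-voom for 4 genes (0.0249% of those tested), with 1346 genes at an unadjusted p under 0.05 and 4 genes in edgeR's quasi-likelihood test. Of these, 3 are named because they are few, chosen after their values were seen. EGR1, an immediate early factor, was at 31.4 and 29.6 CPM in the controls and at 82.5 and 75.1 CPM with gemcitabine, and at 83.2 and 80.3 CPM with genistein and at 85.4 and 92.7 CPM with both drugs, a difference of -1.24 (adjusted p = 9.87e-03). CYR61, a matrix-associated protein, rose with gemcitabine alone (0.63) and had -0.36 with genistein present, a difference of -0.996. The noncoding host gene SNHG3 had -1.47 and -0.49, a difference of 0.985. SNHG3 was at 114.7 and 111.8 CPM in the controls and at 40.8 CPM in both gemcitabine libraries. With the replicate block 0 genes passed, the adjusted p of these 3 lying between 0.0617 and 0.114, and 0 passed when any of the 4 control or gemcitabine libraries was left out.

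PANC1, another established line from a pancreatic ductal carcinoma, received the same dose for the same time. The gemcitabine response differed between the lines, in a model of all 16 libraries, for 2728 of 17863 genes (15.3%), and for 1607 (33.9%) of the 4747 genes called in MiaPaCa2. Of these, 927 were called higher in MiaPaCa2 with a lower response in PANC1, and 656 were called lower with a higher one. Since the called genes were chosen by the MiaPaCa2 response that the test subtracts, this share and these directions were favoured by the choice. The GC trends of the lines run in opposite directions, from 0.19 to -0.15 in PANC1, and their part in this count was not tested. Of the genes called in MiaPaCa2, 2083 differed with GC correction, against 1607 without it. After GC correction 4646 genes differed, and the count went from 857 without MiaPaCa2 control I to 5463 without PANC1 control II.

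The largest differences among the most changed genes were those of VASN, FAM46C, CDKN1A, NPTX1 and KIAA1161, which PANC1 already had at higher levels without drug. On the scale of the 16 libraries, CDKN1A in PANC1 was at 148 and 110 CPM in the controls and at 173 and 156 CPM with gemcitabine, against 6.14 and 5.67 CPM and 50.0 and 53.7 CPM in MiaPaCa2. The response of CDKN1A in PANC1 was thus smaller by 2.75 (adjusted p = 9.32e-05), and that of VASN by 3.88 (adjusted p = 3.06e-03). Both differences stayed past the threshold after GC correction (-2.32 and -3.17) and with any 1 of the 8 libraries left out. RRM2 (adjusted p = 0.44), CCNE1 (0.53), CCNB1 (0.34) and CDT1 (0.27) did not pass the test of a difference, though after GC correction RRM2 (difference 0.25, adjusted p = 0.0384) and CCNE1 (0.36, adjusted p = 0.0313) did. In PANC1 the log2 fold changes of RRM2, CCNE1, CCNB1 and CDT1 were 0.83, 0.9996, -0.93 and 0.66.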

How the data were processed

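RNA was sequenced from poly-A libraries (TruSeq Stranded mRNA) as 50-base single reads. According to the study's methods and the submitters' processing notes, the authors aligned reads to GRCh37 with TopHat 2.0.4, left out reads with several alignments using Picard 1.29, counted reads per gene with HTSeq 0.6.1 and computed FPKM with Cufflinks 2.1.1. Neither the annotation release nor whether HTSeq used the strand is given in the sources used here. The deposited counts are raw, whole-number counts of 63677 gene identifiers, and the deposited FPKM values, from a separate program, are scaled to transcript length and library size.

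Counts of the 8 MiaPaCa2 libraries (depths of the 4 compared are in the results) were filtered with filterByExpr, scaled by TMM (edgeR 4.0.16) and fitted with limma-voom (limma 3.58.1, R 4.3.3), with 1 mean per group and no replicate block. CPM are TMM-scaled, SE is that of the fit, and p-values are two-sided and Benjamini-Hochberg adjusted over all genes tested. FPKM entered through the criterion of a mean above 1. The difference between lines came from a model of all 16 libraries. GC correction removed a loess trend (span 0.3, degree 1) on exon GC content from each library, for the 15757 genes with a value. Genes were positioned by GENCODE annotation on GRCh37. Scripts were tested on simulated data.

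Named genes were the 10 largest rises and 10 largest falls among called genes with a mean of at least 100 counts and groups that did not overlap, up to 4 called members per list by size, and 15 genes named whatever their result. Further list members are named for their role and were chosen after their values were seen. Results for some genes are not reported here. The comparison and the lists were chosen with earlier results of these data known. Alternatives included edgeR's quasi-likelihood test, DESeq2 1.42.0, library size alone, no filter, log2(FPKM + 1), all 16 libraries, a replicate block and leaving out each library. With 2 libraries per group, p-values measure only the spread between these cultures.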

Additional observations from a re-analysis of the deposited data

Results flagged for a closer look

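For 5 of the most changed genes the response to gemcitabine differed between the lines, by a test of the difference in a model of all 16 libraries. These genes were picked by their MiaPaCa2 response, which the difference contains, and the choice favours a difference. The difference, PANC1 minus MiaPaCa2 on the log2 scale, was -3.88 for VASN, -3.15 for FAM46C, -2.75 for CDKN1A, -2.74 for NPTX1 and -2.26 for KIAA1161. FAM46C was at 51.4 and 49.7 CPM in the PANC1 controls and at 31.0 and 34.5 CPM with gemcitabine, on the scale of the 16 libraries. After GC correction the 5 differences were -3.17, -3.24, -2.32, -2.31 and -1.94.

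For 3 genes the response differed when genistein was present, by the interaction in limma-voom. The difference, with genistein minus without it, was -1.24 for EGR1, -0.996 for CYR61 and 0.985 for SNHG3. With the replicate block the adjusted p-values were 0.0617, 0.0621 and 0.114.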

How the results depend on the processing

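The count of called genes stayed within 1.5 times of 4747 except without control I, with 2857 called genes, on log2(FPKM + 1), with 3129, and with a fold criterion of 1 on the log2 scale, with 1128 (840 higher and 288 lower). Genes called lower numbered 1554 with library size alone, 859 on log2(FPKM + 1) and 1404 with all 16 libraries in 1 model. Leaving out 1 library gave 2857 to 3847 called genes, 1419 to 2023 higher and 1438 to 1987 lower, in fits that assume the lone library left varies like the other groups. The 2391 genes called in each of these fits were counted by an alternative chosen after seeing the data.

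Same-numbered control and gemcitabine libraries did not deviate together (correlation -0.083). With 2 libraries per group this cannot show whether same-numbered libraries belong together. The replicate block gave 4539 called genes, 4523 of them among the 4747, and 4538 together with GC correction. For the genistein and both-drug libraries the correlation was -0.257, and in models of those 4 libraries crossed pairs gave 5254 called genes and same-numbered pairs 3446, a comparison also chosen after seeing the data. Genes whose response differed with genistein numbered 4, and 0 with the replicate block, 117 with GC correction and 0 to 24 with 1 library left out. Genes whose response differed in PANC1 numbered 4646 with GC correction and 857 to 5463 with 1 library left out.

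Some genes selected for naming lost the call, 24 on log2(FPKM + 1), 14 with all 16 libraries in 1 model and 11 with GC correction. On log2(FPKM + 1) they included CENPE, ATM, ARC, LTBP1 and LTBP2 (limma-trend adjusted p = 0.0538, 0.387, 0.0637, 0.0534 and 0.0761). With all 16 libraries they included ATM and COL1A1 (limma-voom adjusted p = 0.0865 and 0.0679). ATM also lost it in DESeq2 (Wald test adjusted p = 0.0538). Values that were not called changed sign. SLC29A1 had -0.28 with GC correction, also with the replicate block, and -0.0259 to 0.0342 with 1 library left out. DCK had -0.85 on log2(FPKM + 1). TYMS had 0.0738 with library size alone, 0.103 on log2(FPKM + 1), 0.0206 with all 16 libraries and -0.0989 to 0.0333 with 1 library left out. MDM2 had 0.0121 with GC correction and 0.0141 with the replicate block as well. On log2(FPKM + 1) MDM2 had -0.64 (limma-trend adjusted p = 0.0167) and met the criteria of a call. List medians that turned were those of gemcitabine handling (0.0752 with library size alone, 0.136 on log2(FPKM + 1), 0.0225 with all 16 libraries, -0.0861 to 0.0112 with 1 library left out), of glycolysis and hypoxia (0.0554, 0.124 and 0.0021 under the first 3 of these), and, on log2(FPKM + 1), of repair genes (0.11) and the integrated stress response (0.0139). The causes were not tested. Depth limited genes at few counts, such as CDA.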
